A study of Mus musculus with 6 samples.

Results

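Microglia, the resident macrophages of the brain, were split by the amount of CD45 protein on their surface, and the RNA of the cells highest and lowest in CD45 was compared. The cells came from 3 pools in which RNA and antibody tags were read from the same single cells (CITE-seq). Of 36755 barcodes in all, 9589 were taken as microglia. These had at least 500 RNA UMIs (counts of distinct molecules), under 10% mitochondrial UMIs, 1 hashtag with at least 80% of the hashtag UMIs, at least 3 UMIs of P2ry12, Tmem119, Siglech and Gpr34 together, and at most 1 UMI of Ms4a7, Ly6c2, Plac8 and Ccr2 together. Within each hashed sample, the 25% of microglia with the most CD45 formed the high gate and the 25% with the least formed the low gate. The cells were thus selected on 2 kinds of measured values, RNA counts of the genes named and the CD45 tag. CD45 was ranked once relative to the other tags of the cell, as the natural log of its tag count plus 1 minus the mean of the same logs over the 10 protein tags shared by the pools, and once by the raw tag count. Each ranking gave 2367 cells in each gate, from 16 of 18 hashed samples; hashtags 5 and 6 of pool 3, with 57 and 35 microglia, had fewer than 20 cells in a gate.

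The mice were C57BL/6, aged 12 weeks, female and male, without a tumor (control), or 14 or 21 days (D14 and D21) after a tumor was implanted. CD11b+ cells were taken from tumor-bearing hemispheres, or from whole brains of controls, after the animals were perfused to clear blood from the brain. Each pool joined 6 hashed samples, 1 for each combination of sex with control, D14 or D21, so that the design has 6 groups of 3 samples. The labels do not tie a hashtag to a group, nor a sample to an animal, so groups were not compared and every contrast lies within a hashed sample, named here by pool and hashtag. A p-value here rests on how the gate difference varies from one hashed sample to the next, and that variation can be technical in part.

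CD45, encoded by Ptprc, is a receptor-type tyrosine phosphatase found on all nucleated blood cells, where it activates Src-family kinases by removing an inhibitory phosphate. Microglia are known for low to intermediate surface CD45, while monocytes and macrophages that enter the brain from blood carry more, so CD45 level is widely used to tell them apart. Alternative splicing of Ptprc gives CD45 isoforms, which RNA counted at the 3′ end does not resolve.

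The pools held 71510276 to 107880924 RNA UMIs, with a median of 4451 to 8129 per barcode. Pool 3 stood apart: 1896 of its 11760 barcodes that passed the RNA filters reached the hashtag share, against 10908 of 13766 in pool 1 and 9353 of 10688 in pool 2. It gave 833 microglia, against 4921 and 3835. Pairs of pools shared 32 to 53 cell barcodes. A gate of a hashed sample summed 112764 to 2128555 RNA UMIs in the relative ranking and 101627 to 2229546 in the raw ranking. The markers of the cell rule were joined by 16 further microglial genes, among them Cx3cr1, which some monocytes also express, at a median of 2945 CPM (UMIs of the gene scaled to a common total) in the relative high gates. Markers of other leukocytes were present as well in some gates, with an NK and T cell sum of up to 2080 CPM and a neutrophil sum of up to 3962 CPM in a relative high gate.

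The tags that set the gates are given as a description, without a test. The median CD45 tag count per cell lay between 98 and 152 UMIs (median of the samples 121.25) in the relative high gates and between 54 and 111 (median 70) in the low gates. The raw high gates ran from 129 to 250 (median 151) and the raw low gates from 37 to 70 (median 53). At the edge of the gates, in pool 1 hashtag 1, the last cell inside the relative high gate scored 1.177 and the first cell outside 1.176, and on the raw scale both had 124 UMIs. The 2 rankings shared part of their cells: 1197 cells were high in both (50.6% of each high gate) and 1156 low in both (48.8%). A further 291 cells were low in the relative and high in the raw ranking, and 146 the reverse.

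The other tags moved in opposite ways under the 2 rankings. In the raw high gates every tag had a higher median over samples than in the low gates, with Ly-6C at 446 against 192.25 UMIs, PD-L1 at 38 against 12.5 and MHC class II at 31.25 against 12.5. In the relative high gates Ly-6C was lower (258 against 391 UMIs), as were PD-L1 (18.5 against 30.75), CD49d (25.5 against 39.5) and MHC class II (17 against 31.75), while CD11b was higher (314.5 against 227.5). A cell thus ranks high on the relative scale by more CD45 or by less of the other tags.

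**Figure D1:**
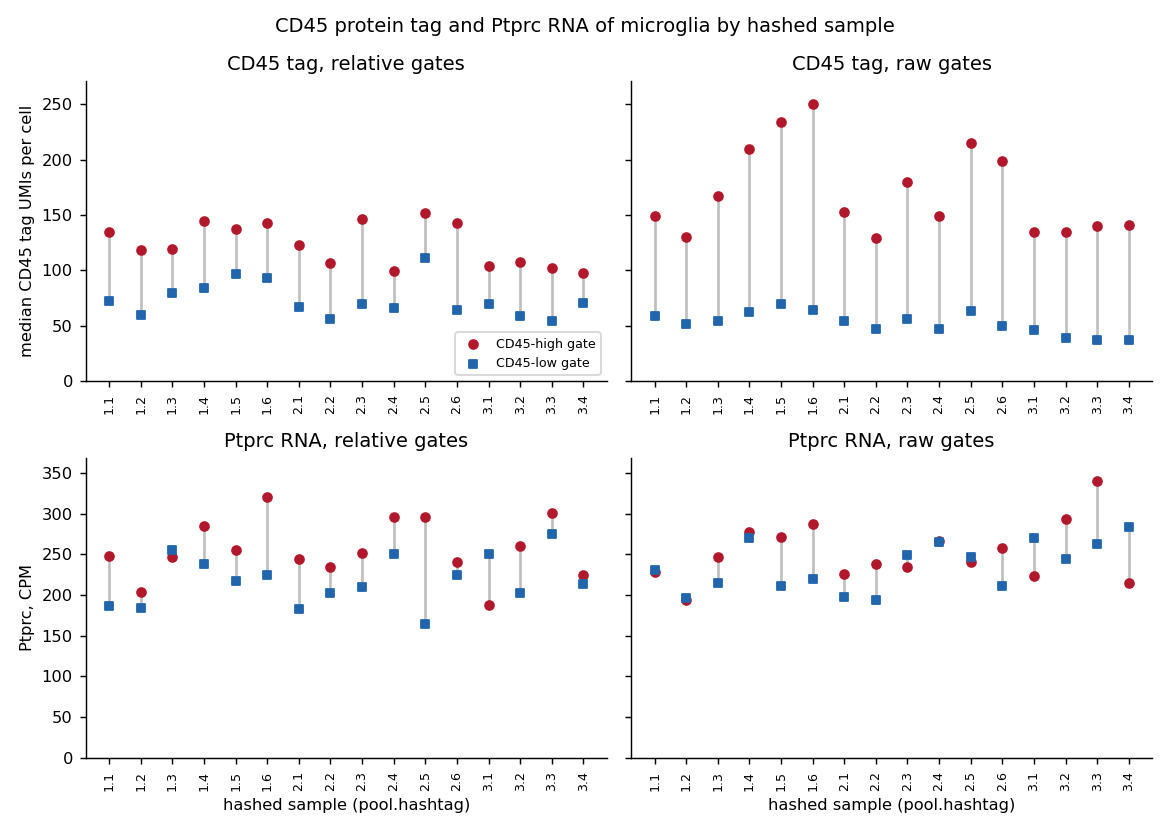
CD45 tag UMIs per cell (median, top row) and Ptprc RNA in CPM (bottom row) in the high gate (circles) and low gate (squares) of each of 16 hashed samples, named pool.hashtag, for the relative (left) and raw (right) ranking. The gap in the tag is wide by construction, while Ptprc RNA of the relative gates is higher in the high gate in 14 of 16 samples.

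Ptprc RNA was slightly higher in the cells high in CD45 on the relative scale. In the relative high gates it ran from 188 CPM through a median of 249.6 to 320.1, and in the low gates from 164 through 215 to 275. The ranges overlapped, but within samples the high gate was above the low gate in 14 of 16; the exceptions were pool 1 hashtag 3 (247 against 255 CPM) and pool 3 hashtag 1 (188 against 250). The log2 fold change was 0.26 ± 0.06 (SE, 16 samples), which is 1.20-fold, and passed edgeR's quasi-likelihood test (adjusted p = 0.0192). In the raw gates Ptprc ran from 194 through 243.5 to 340.5 CPM against 194 through 237.8 to 284.3, higher in 10 of 16 samples. That difference, 0.11 ± 0.06 on the log2 scale, did not pass (edgeR adjusted p = 0.179), and its 95% interval was -0.0069 to 0.234. Behind each gate's value stood 31 to 517 Ptprc UMIs in the relative gates. The relative call was lost without pool 1 (0.27, adjusted p = 0.196) or without pool 2 (0.19, 0.431), without cells that carried any UMI of rare markers of other leukocytes (0.20, 0.111), and in the further settings given at the end. With the top and bottom 10% of cells it was larger (0.50, 0.00483).

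The 250 bases before the RefSeq start of Ptprc (GRCm38.p6, chr1:138175306-138175555, minus strand) are shown because this gene encodes the protein that set the gates. Capitals mark the core GAGGAA bound by PU.1, the factor that directs myeloid gene expression; it was searched on both strands.
Ptprc: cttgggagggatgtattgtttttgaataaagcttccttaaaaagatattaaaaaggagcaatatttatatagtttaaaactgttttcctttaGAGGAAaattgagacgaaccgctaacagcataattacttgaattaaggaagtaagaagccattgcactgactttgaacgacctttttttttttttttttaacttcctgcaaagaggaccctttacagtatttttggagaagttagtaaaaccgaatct
The core occurred once, 158 bases before the start, and 23.4% of 32526 such windows in the RefSeq table hold it. The window of a second RefSeq start of Ptprc (chr1:138175127-138175376) has no match.

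Cells high in CD45 also held more RNA, and far more so on the raw scale. Mean RNA UMIs per cell ran from 3766 through 5862 to 9461 in the relative high gates and from 3015 through 5137 to 9799 in the low gates. The mean log2 difference was 0.20 ± 0.27 (SD, n = 16), higher in 11 of 16 samples (permutation test over samples, 2-sided, adjusted p = 0.0134 over 6 values). The raw high gates ran from 3916 through 7423 to 12234 UMIs per cell and the low gates from 2764 through 3887 to 6061. That difference was 0.86 ± 0.22, higher in 16 of 16 samples, with the smallest p that 16 pairs can give (3.1e-05, permutation test, adjusted 6.1e-05). Ribosomal protein genes took 3.50 ± 1.23 percentage points more of the RNA in the raw high gates (16 of 16 samples, adjusted permutation p = 6.1e-05) and 0.87 ± 1.59 points more in the relative high gates (11 of 16, 0.0465). The mitochondrial share was higher by 0.71 ± 0.33 points (16 of 16, 6.1e-05) and 0.27 ± 0.30 points (13 of 16, 0.00444). Of the relative differences, that in ribosomal share did not pass without any one of the pools, that in RNA amount did not pass without pool 2 or without pool 3, and that in mitochondrial share did not pass without pool 2.

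**Figure D2:**
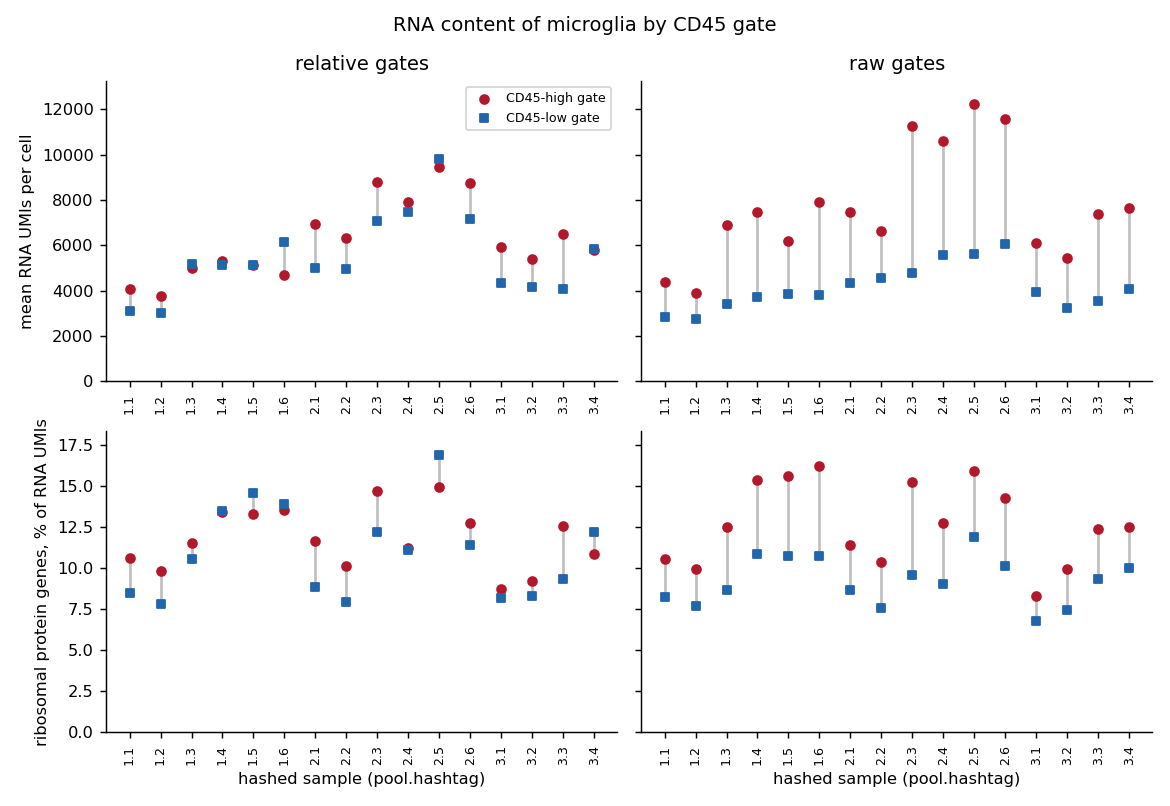
Mean RNA UMIs per cell (top) and the percent of RNA UMIs from ribosomal protein genes (bottom) in the CD45-high (circles) and CD45-low (squares) gate of each hashed sample, for the relative (left) and raw (right) ranking. In the raw gates the high gate is above the low gate in all 16 samples, while in the relative gates 5 samples go the other way in each panel.

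In the relative gates 213 of 9276 genes tested passed at an adjusted p under 0.05 (2.30%): 132 were higher in the CD45-high gate (1.42%) and 81 lower (0.873%). The median log2 fold change over all genes was -0.01. With scaling by library size alone the split was 108 higher and 103 lower. In the raw gates 2402 of 8817 passed (27.2%), 1412 higher (16.0%) and 990 lower (11.2%), with a median of -0.03. There, library size scaling alone gave 881 higher and 2342 lower and a median of -0.16. For scale beside the member counts of other settings, the share of all genes called in the relative gates was 1.61% with DESeq2, 2.27% with library size scaling alone, and 0.497%, 1.53% and 2.14% without pool 1, 2 or 3. In the raw gates it was 36.6% with library size scaling alone and 13.9% without pool 2. Both comparisons share cells, so the values of each are given side by side.

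Gadd45b, Nfkbia and Junb were among the 10 genes with the highest fold in the relative CD45-high gates under the naming rule, which asks for the same sign in at least 90% of samples. Genes outside that rule had larger folds, such as Lpl (1.53). Nfkbia, which encodes the inhibitor that holds NF-kB in the cytoplasm and is itself switched on by NF-kB, ran from 1275 through 1979 to 2943 CPM in the high gates and from 808 through 1291 to 2656 in the low gates. It was higher in 16 of 16 samples, by 0.59 ± 0.07 on the log2 scale (edgeR adjusted p = 5.6e-07). Junb, a subunit of the transcription factor AP-1, ran from 2533 through 3328 to 5235 against 1416 through 2075 to 4321 CPM, again higher in 16 of 16 (0.51 ± 0.07, adjusted p = 2.9e-06). Gadd45b, a gene of the growth arrest and DNA damage family, had the highest log2 fold change under the naming rule, 0.88 ± 0.10 (15 of 16 samples). For all 3 genes the ranges of the 2 gates overlapped across samples, and the difference lay within samples.

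The other 7 of these 10 genes included Nfkbiz, a nuclear regulator of NF-kB (0.52 ± 0.08), Ppp1r15a, a stress-induced phosphatase subunit (0.52 ± 0.08), and Maff, a small Maf transcription factor (0.65 ± 0.17, adjusted p = 0.0245). Ccrl2, an atypical chemokine receptor, rose by 0.56 ± 0.11, Tmem176a, a membrane protein, by 0.52 ± 0.08, Arl4d, a small GTPase, by 0.50 ± 0.09, and Gt(ROSA)26Sor, a noncoding RNA, by 0.54 ± 0.09. Each of these was higher in 15 or 16 of 16 samples. With CD45 ranked by its residual on the RNA UMIs of the cell, 5 of the 10 passed in the other direction in edgeR's test: Nfkbia (-0.24, adjusted p = 0.0043), Arl4d (-0.64, 0.000137), Gt(ROSA)26Sor (-0.42, 0.00105), Nfkbiz (-0.27, 0.0184) and Ppp1r15a (-0.25, 0.0199). Among 15 genes known to be induced by tissue dissociation, 7 rose (Junb, Nfkbia, Ier2, Egr1, Btg2, Ier3 and Jund) and 1 fell, the heat shock gene Hspa1b (-0.33 ± 0.09, lower in 14 of 16). The list's median was 0.23, against -0.01 over all genes. Fos was at 0.08 and Jun at 0.23 and neither passed. Without pool 1 the list held 4 calls higher, without pool 2 it held 3 and without pool 3 it held 9.

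Under the raw ranking this list stood the other way: 9 of its 15 genes fell and only Ier3 rose, with a median of -0.31. Jun, the partner of Fos in AP-1, ran from 1866 through 3785 to 5849 CPM in the raw high gates and from 3045 through 5167 to 7357 in the low gates, lower in 15 of 16 samples (-0.55 ± 0.07, edgeR adjusted p = 1.4e-07). Fos (-0.33 ± 0.07), Fosb (-0.54 ± 0.08) and Egr1 (-0.31 ± 0.06) fell as well. Nfkbia (0.15, adjusted p = 0.0754) and Junb (0.01, 0.924) did not pass. These genes respond to cell isolation as well as to signals in tissue, and the part of isolation in either direction was not tested.

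The Nfkbia window (GRCm38.p6, chr12:55492648-55492897, minus strand) is shown because Nfkbia was higher in every sample of the relative gates. Capitals mark a match to the NF-kB pattern of GGG, any pair of bases and TTTCC, on either strand.
Nfkbia: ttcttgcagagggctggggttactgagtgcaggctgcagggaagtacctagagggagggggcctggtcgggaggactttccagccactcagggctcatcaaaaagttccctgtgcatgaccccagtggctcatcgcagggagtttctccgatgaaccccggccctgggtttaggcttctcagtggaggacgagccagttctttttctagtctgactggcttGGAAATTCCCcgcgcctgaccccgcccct
The match starts 29 bases before the RefSeq start. The pattern is in 1.40% of all windows and in 1 of the 13 genes of the dissociation list that the table holds, Nfkbia itself.

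Genes of antigen presentation and of the interferon response were lower in the relative CD45-high gates. Of 10 MHC class II genes 7 fell and none rose, with a median of -0.55. H2-Aa, a chain of the class II molecule, ran from 24 through 129 to 3027 CPM in the high gates and from 53 through 168 to 4685 in the low gates (-0.69 ± 0.13, edgeR adjusted p = 0.00139, lower in 13 of 16). Samples fell far apart in level: 7 held at least 700 CPM of H2-Aa in both gates (760 to 3027 high, 1515 to 4685 low) and were lower in the high gate in 7 of 7, while the other 9, at 24 to 195 CPM, were lower in 6 of 9. Cd74, the invariant chain that guards the class II groove, fell by 0.61 ± 0.15 (12 of 16), and Ciita, the master activator of the class II genes, by 1.20 ± 0.18 at a median of only 1.46 against 5.90 CPM. Without pool 1 none of the 10 passed and the median was -0.24. The tags of CD74 and MHC class II are among the 10 averaged in the relative ranking, so a cell with less of these proteins ranks higher; their part in the RNA difference was not tested.

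Of 20 interferon-response genes 9 fell and none rose, with a median of -0.44. By sample, the list's median ran from -1.06 in pool 1 hashtag 3 to 0.61 in pool 3 hashtag 3. It was also above 0 in pool 1 hashtag 1, pool 2 hashtags 1 and 2 and pool 3 hashtag 1, and below 0 in the other samples. Gbp2, an interferon-inducible GTPase, ran from 0 through 29.5 to 305 CPM in the high gates and from 5 through 46.3 to 871 in the low gates (-0.95 ± 0.12, adjusted p = 9.6e-07, lower in 11 of 16). Cxcl9, a chemokine induced by interferon gamma, fell by 1.22 ± 0.17 (12 of 16), from a median of 43 to 20.2 CPM. The signal transducer Stat2 (-0.42 ± 0.10, 12 of 16) fell, as did Bst2, Ifit3 and Ifitm3, which restrict viruses, while Isg15 (-0.21) and Irf7 did not pass. Without pool 1 only 2 of the 20 passed, with a median of -0.27. Of 14 genes of MHC class I and its peptide loading, 3 fell (H2-Q7, H2-T22 and Tap1). The tags of MHC class II, CD74 and PD-L1 are in the mean that the relative ranking subtracts. Their part in the interferon and class I differences was not tested.

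With raw CD45 both groups were higher with CD45. There 6 of 10 class II genes, 9 of 14 class I genes and 15 of 20 interferon-response genes rose and none fell, with medians of 0.30, 0.23 and 0.66. H2-Aa rose by 0.44 ± 0.07 (15 of 16 samples), Gbp2 by 0.95 ± 0.11 (13 of 16), Isg15 by 0.78 ± 0.10 (14 of 16), Ifitm3 by 0.95 ± 0.10 (16 of 16) and B2m, the light chain of class I, by 0.38 ± 0.05 (16 of 16). Cxcl9 rose by 2.39 ± 0.26, but in only 9 of 16 samples. Without pool 2, where 13.9% of all genes passed, 3 class II, 3 class I and 12 interferon genes rose. Library size scaling alone, where 36.6% of all genes passed, gave 2 of the 14 class I genes higher and 1 lower, a smaller share than over all genes.

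The Gbp2 window (GRCm38.p6, chr3:142620413-142620662, plus strand) is shown because Gbp2 passed in opposite directions under the 2 rankings. Capitals mark a match to GAAA, any pair of bases and GAAA, the core of the interferon-stimulated response element, on either strand.
Gbp2: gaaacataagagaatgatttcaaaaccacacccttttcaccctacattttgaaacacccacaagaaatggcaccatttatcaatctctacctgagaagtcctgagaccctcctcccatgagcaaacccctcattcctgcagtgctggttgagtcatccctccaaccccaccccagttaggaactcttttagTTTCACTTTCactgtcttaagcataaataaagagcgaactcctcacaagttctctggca
The match starts 59 bases before the RefSeq start. The core is in 2.98% of all windows and in 9 of the 15 interferon-response genes that the table holds.

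**Figure D3:**
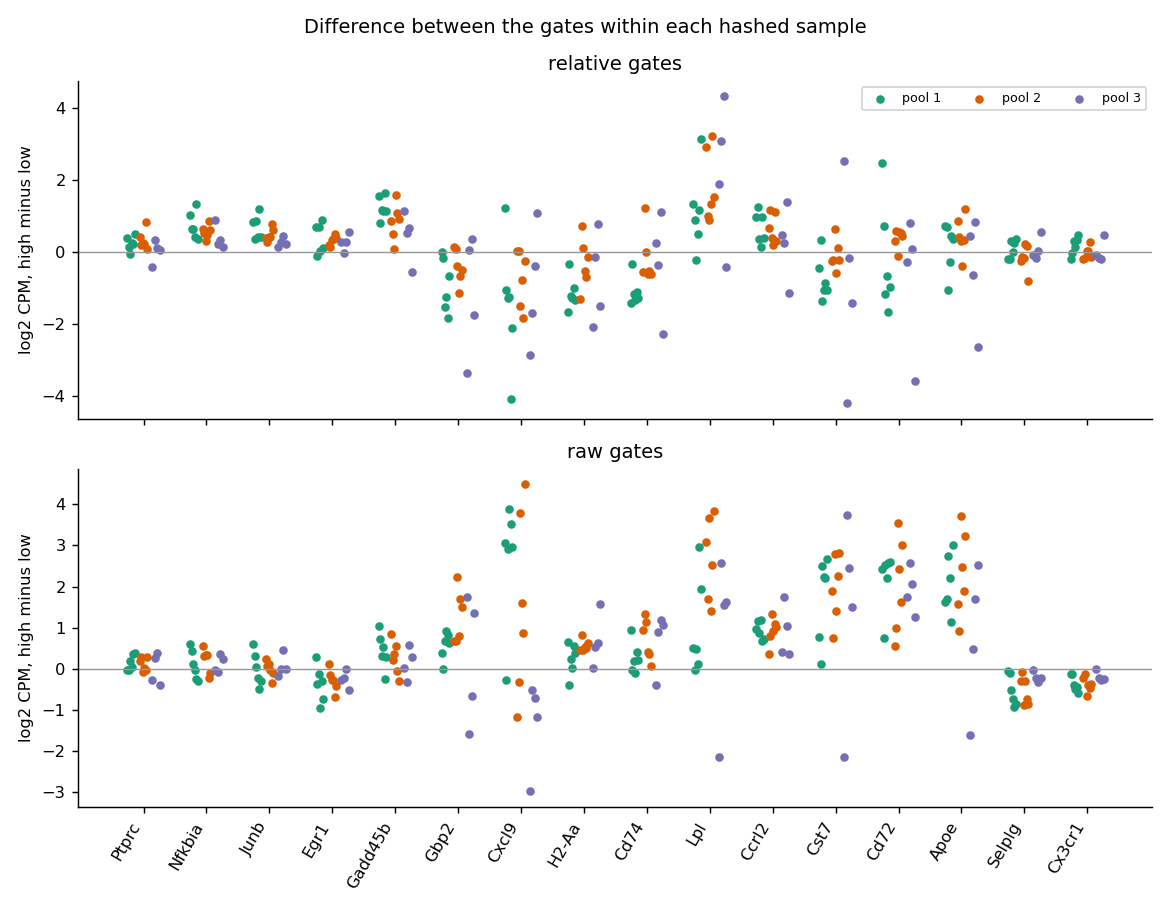
Log2 CPM of the high gate minus the low gate (prior count of 2) in each hashed sample, coloured by pool, for 16 genes in the relative (top) and raw (bottom) gates. Nfkbia and Junb are above 0 in all 16 samples of the relative gates, Gbp2, Cxcl9, H2-Aa and Cd74 lie mostly below 0 there and mostly above 0 in the raw gates except Cxcl9, and Selplg and Cx3cr1 are below 0 in all 16 samples of the raw gates.

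The programme of disease-associated microglia, the state seen around amyloid and in injury, was higher in the raw CD45-high gates. Of 19 of its genes 17 rose and none fell, with a median of 1.29. Cst7, which encodes the protease inhibitor cystatin F, ran from 0 through 242 to 642 CPM in the raw high gates and from 0 through 43.4 to 99.4 in the low gates, higher in 15 of 16 samples (2.26 ± 0.13, edgeR adjusted p = 5.0e-16). Apoe, a lipid carrier, ran from 865 through 3144 to 17364 against 339 through 704 to 3763 CPM (1.91 ± 0.20, 15 of 16). Spp1, which encodes osteopontin, rose by 4.30 ± 0.28 in 13 of 16 samples, and Lpl, lipoprotein lipase, by 2.12 ± 0.24 in 14 of 16. Trem2, the receptor on which much of this state depends, did not pass (-0.03 ± 0.05), nor did Cd68. Markers of infiltrating macrophages were higher in the same gates. Their sum over 11 markers ran from 458 through 870 to 2093 CPM against 347 through 483 to 776, higher in 15 of 16 samples. Of the 11, 7 passed the filter on low counts: Arg1, Gpnmb, Tgfbi, Ccl8, Lyz2, Vim and Itga4. Since a gene can pass it through the high gates alone, their calls are not counted. Gpnmb is on both lists. Without cells that carried any UMI of the capped genes Ms4a7, Ly6c2, Plac8 and Ccr2, 17 of the 19 disease-associated genes rose, with a median of 1.37, and 22.2% of all genes passed. The part of RNA from infiltrating cells in these values was not tested further.

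Beside Cst7 and Apoe, the genes with the highest fold under the naming rule were Cd72, a C-type lectin coreceptor (2.39 ± 0.14, 16 of 16 samples), Fabp5, a fatty acid-binding protein that is also on that list (2.29 ± 0.23), and Bcl2a1d, an inhibitor of apoptosis (2.26 ± 0.16). Cytip (2.14), Crip1 (2.09), Cybb, a subunit of the phagocyte NADPH oxidase (2.0), Lgals1, which encodes galectin-1 (2.0), and Fxyd5 (1.93) followed. Lysosome and complement genes rose too: 9 of 15 lysosome and lipid genes rose and none fell, and of 14 complement and Fc receptor genes 10 rose and 1 fell. Without pool 2, where 13.9% of all genes passed, the latter count was 4 higher and none lower. Library size scaling alone, where 36.6% of all genes passed, gave 6 higher and 4 lower.

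In the relative gates this programme was mixed. Lpl rose by 1.53 ± 0.20 (a median of 39.2 against 10.4 CPM, 14 of 16 samples, edgeR adjusted p = 4.6e-06), Ccl6, a chemokine, by 0.49 ± 0.10 (13 of 16) and Ank, a membrane transporter, by 0.67 ± 0.18 (11 of 16). Cst7 fell by 0.52 ± 0.14 (lower in 12 of 16, adjusted p = 0.0305), the other 15 genes did not pass, and the list's median was 0.04. C4b, a classical complement component, fell there (-0.89 ± 0.13), although it was higher in 7 of 16 samples. Without pool 2 the list's calls were 1 higher and 3 lower.

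Homeostatic microglial genes were lower in the raw CD45-high gates. P2ry12, Tmem119, Siglech and Gpr34 were part of the rule that chose the cells, which asked for a fixed number of their UMIs from cells of unequal depth, so they are not counted. Of the 16 others 13 fell and none rose, with a median of -0.30. Cx3cr1, the fractalkine receptor, ran from 1798 through 2685 to 4060 CPM in the high gates and from 2557 through 3478 to 4173 in the low gates, lower in 16 of 16 samples (-0.32 ± 0.05, edgeR adjusted p = 1.1e-06). Selplg fell by 0.45 ± 0.07 (16 of 16), Mertk, a receptor for apoptotic cells, by 0.30 ± 0.06, and Sall1, a transcription factor of microglial identity, by 0.32 ± 0.08 (13 of 16 each). Without pool 2, 7 of the 16 passed. In the relative gates none of the 16 passed in either direction, with a median of 0.0088. Samples differed in direction there: the median of the full list of 20, with the genes of the cell rule, ran from -0.40 in pool 2 hashtag 6 to 0.43 in pool 3 hashtag 4. The smallest adjusted p was that of Fcrls (0.30 ± 0.09, edgeR adjusted p = 0.0924), 3 of the 16 had an unadjusted p under 0.05, and DESeq2 also called 0.

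The raw high gates also held more RNA of growth and metabolism. All 15 cytosolic ribosomal protein genes rose (median 0.62), as did 11 of 13 glycolysis and hypoxia genes (median 0.65), with Ldha at 0.65 ± 0.09 and Pkm at 0.77 ± 0.10, and 12 of 15 cell cycle genes (median 0.95). Mki67, a marker of dividing cells, was at a median of 6.2 against 1.4 CPM and higher in 7 samples and lower in 4, and without pool 2 only 5 of the 15 passed. Of 17 chemokines and cytokines 12 rose, among them Il1b (1.36 ± 0.16, 15 of 16) and Tnf (0.63 ± 0.11, 13 of 16), and Tgfb1 fell (-0.21 ± 0.06). In the relative gates none of the glycolysis or cell cycle genes and 2 of the ribosomal protein genes passed, and of the chemokines Ccl7 fell and Ccl5 rose. Ccl5 is also an NK and T cell marker, and it fell (-1.12) when cells with markers of other leukocytes were left out. The raw high gates held more RNA per cell in 16 of 16 samples. With CD45 ranked by its residual on RNA UMIs, 13 ribosomal and 3 glycolysis genes rose and 1 cell cycle gene fell.

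The genes with the lowest fold in the raw high gates were Csmd3 (-0.86 ± 0.10, lower in 16 of 16), Zbtb37, the clock gene Per3, Tsc22d3, a glucocorticoid-induced regulator (-0.66 ± 0.09, 15 of 16), Adap2os, Mtss1, Zfp691, Sertad1, Pwwp2a and Zscan26 (-0.57 ± 0.10). Under the same rule the lowest in the relative gates were Ssr2 (-0.29 ± 0.07), Psma3, a proteasome subunit (-0.25 ± 0.06), Rer1 (-0.24 ± 0.06) and Ostc, a subunit of the glycosylation complex (-0.22 ± 0.06). These 4 were the only genes lower under the naming rule, and the call of each was lost without pool 1. Genes with lower folds, such as Cxcl9 and Gbp2, were lower in fewer than 90% of samples.

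**Figure D4:**
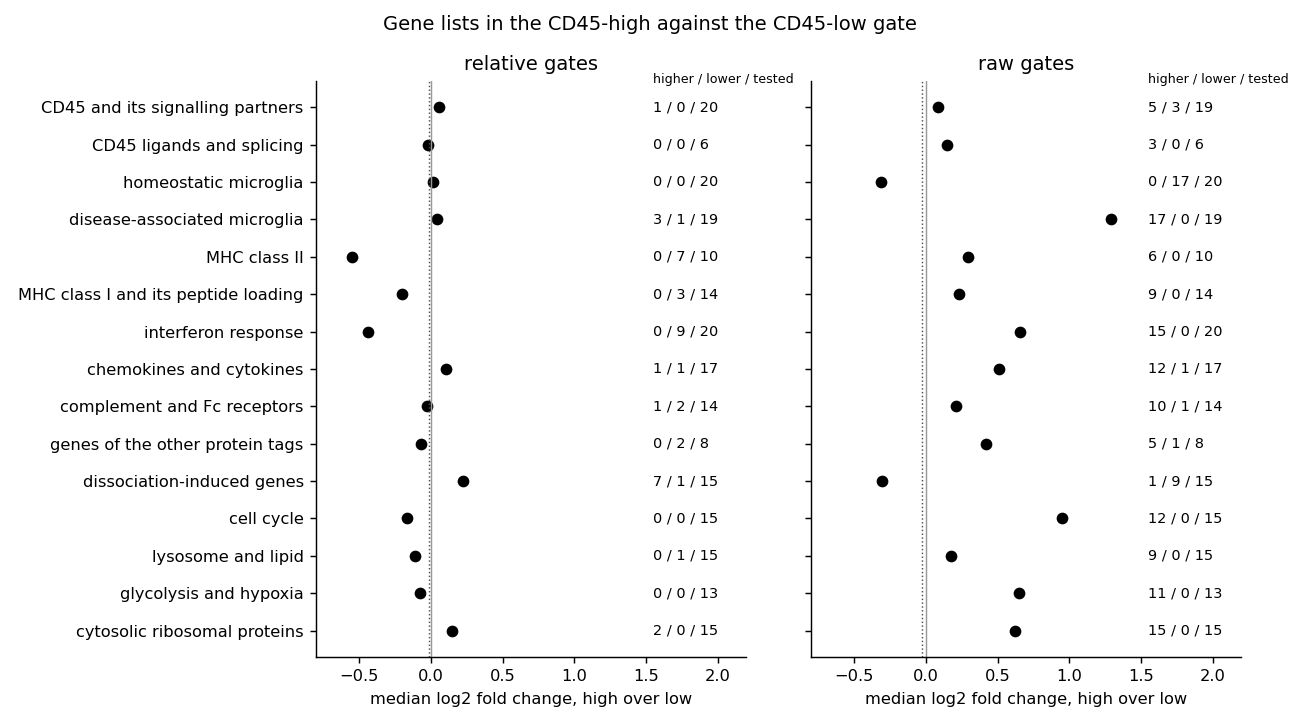
Median log2 fold change of each gene list in the relative (left) and raw (right) gates; the dotted line is the median over all genes tested, and the numbers give the members called higher, called lower and tested. MHC class II and interferon-response lists lie below 0 in the relative and above 0 in the raw gates, and the dissociation list does the reverse; the homeostatic list is drawn with the 4 genes of the cell rule.

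Of 20 genes of CD45 and its signalling partners tested in the relative gates only Ptprc passed, where 2.30% of all genes did; the next, Jak1, a kinase that CD45 can dephosphorylate, was at 0.20 ± 0.07 (edgeR adjusted p = 0.151). The Src-family kinases Lyn (-0.05), Fyn (0.42) and Fgr (0.44), the kinase Csk that opposes CD45 (0.04) and the phosphatase Ptpn6 (0.03) did not pass. Of the 19 tested in the raw gates 5 rose and 3 fell, where 27.2% of all genes passed. Fgr (1.05 ± 0.30), Fyn (0.65 ± 0.22), Ptpn6 (0.17 ± 0.06) and the adaptors Fcer1g (0.38 ± 0.05) and Tyrobp (0.30 ± 0.05) rose, and Pag1, the membrane anchor of Csk (-0.46 ± 0.08), Inpp5d (-0.30 ± 0.07) and Sirpa (-0.20 ± 0.06) fell. Under library size scaling alone, where 36.6% of all genes passed, these counts were 3 higher and 6 lower, and the median turned from 0.08 to -0.05. Of the galectins that bind CD45 sugars, Lgals1, Lgals3 (2.37 ± 0.25) and Lgals9 (0.21 ± 0.06) rose in the raw gates and did not pass in the relative gates. Hnrnpll, which directs CD45 splicing, passed in neither.

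Among genes whose proteins carried the other tags, RNA followed the tag in part. In the raw high gates Cd52 (1.08 ± 0.10), Cd274, which encodes PD-L1 (0.86 ± 0.17), Itga4, which encodes CD49d (2.01 ± 0.38), Cd74 and H2-Ab1 rose, but Itgam, which encodes CD11b, was at -0.02 ± 0.05 while its tag went from 164 to 423 UMIs. Tmem119, a gene of the cell rule, was called lower there, while its tag went from 58 to 86.25 UMIs. These tag values are counts per cell, whereas RNA is scaled to a common total. Relative to the mean of the 10 tags (natural log), the Tmem119 tag differed by -0.55 (higher in 0 of 16 samples) and CD11b by 0.045 (10 of 16). On that scale PD-L1 was at 0.24, MHC class II at 0.12 and CD49d at 0.072, but CD52 at -0.097 and CD74 at -0.13. In the relative high gates H2-Ab1 and Cd74 fell, Cd274 was at -0.46 (edgeR adjusted p = 0.0772) and Itgam at 0.03. The tags of these genes enter the relative ranking, and their part in the RNA differences was not tested.

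Markers of some other leukocytes were higher in the high gates of some samples. Gzma, a granzyme of NK and T cells, reached 100 CPM or more in 5 of 16 relative high gates, up to 816 in pool 1 hashtag 4, against at most 15.6 in any low gate. Of the 12 markers of NK and T cells 6 passed the filter on low counts in the relative and 5 in the raw gates; since a gene can pass it through the high gates alone, their calls are not counted. The summed level over the 12 markers ran from 33.4 through 253 to 2080 CPM in the relative high gates and from 35.5 through 163 to 614 in the low gates. S100a8, a neutrophil gene, reached 100 CPM or more in 3 high gates only (pool 1 hashtag 3, pool 2 hashtag 1 and pool 3 hashtag 2), and the neutrophil sum was higher in 8 of 16 samples, with Ly6g at 0. Dendritic markers summed to 6.5 through 23.8 to 365 CPM against 0 through 16.0 to 74.4. Of these 10 markers 4 passed the filter on low counts, and their calls are not counted either. The list includes Klrd1, a receptor gene of NK cells, so the sum is not of dendritic cells alone. Monocyte and infiltrating macrophage sums were higher in 7 and 8 of 16 relative high gates and in 12 and 15 of 16 raw high gates. The border macrophage sum was higher in 0 of 16 raw high gates (median 504 against 794 CPM). The B cell sum was higher in 3 of 16 raw high gates and the neutrophil sum in 4 of 16. In the relative gates the border macrophage sum was higher in 8 of 16 samples and the B cell sum in 6 of 16. The cell rule itself capped Ly6c2, Plac8 and Ccr2 of the monocyte list and Ms4a7 of the infiltrating and the border macrophage lists.

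When cells with any UMI of 44 such markers found in under 5% of microglia were left out, a choice made after seeing the data, 7662 microglia remained and 148 genes passed in the relative gates (1.80% of those tested, 88 higher and 60 lower) and 1729 in the raw gates (21.3%). The dissociation list then held 8 higher and 1 lower, the class II list 7 lower and the interferon list 12 lower, and of the NK and T cell markers only Ccl5 passed, now lower (-1.12). There the raw gates had the disease-associated list at 16 higher and the 16 homeostatic genes outside the cell rule at 10 lower.

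Over 4 equal bins of the ranking, from lowest to highest, Nfkbia, Junb and Ptprc climbed in steps on the relative scale, here in CPM of the plain library size. The median of Nfkbia went from 1099 in the lowest bin through 1475 and 1610 to 1919 in the highest, that of Junb from 2184 through 2456 and 2613 to 3188, and that of Ptprc from 213 through 227 and 232 to 244. Gbp2 was highest in the lowest bin (46.6) and had no steady order over the others, at 27.7, 32.2 and 27.9. On the raw scale the widest step of the activated genes was the last: Cst7 went from 45.4 through 82.7 and 109 to 222.5 and Spp1 from 10.5 through 14.3 and 25.6 to 170.8, while Cx3cr1 went from 3638 through 3421 and 3069 to 2595. Ptprc on the raw scale had no such order, at 243, 227, 227 and 233.

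**Figure D5:**
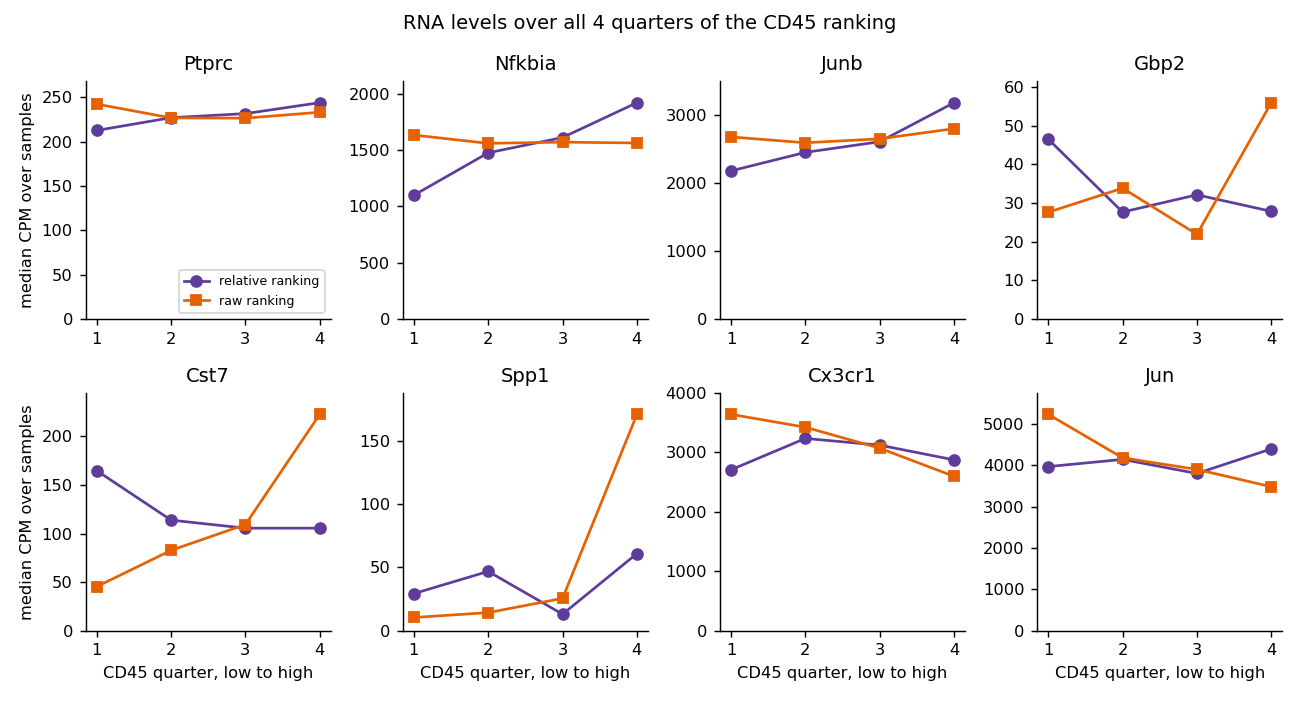
Median CPM over 16 hashed samples in each of 4 equal bins of the CD45 ranking, from lowest (1) to highest (4), for 8 genes, on the relative (circles) and raw (squares) scale. Nfkbia and Junb climb over the relative bins, and Cst7 and Spp1 climb mainly into the last raw bin.

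Taking RNA amount or the other tags out of the raw ranking moved the groups in different ways. When CD45 was ranked by its residual on the log RNA UMIs of the cell, 665 of 9431 genes passed (7.05%), 433 higher and 232 lower. The dissociation list then had 12 genes lower and none higher, the disease-associated list 12 higher and none lower, the interferon list 4 higher, the class II list none and the ribosomal list 13 higher. Ptprc was at 0.21 (edgeR adjusted p = 0.0226). When CD45 was ranked by its residual on the other 9 tags, 489 of 8951 genes passed (5.46%), 381 higher and 108 lower. The class II list then had 6 lower, the interferon list 1 in each direction, the dissociation list 4 higher and 1 lower, and the disease-associated list 8 higher, with Ptprc at 0.20 (0.0252). Cells in the top or the bottom 25% on both scales, in 14 samples, gave 1016 of 6984 genes (14.5%), with 13 disease-associated genes higher, 10 of the 16 homeostatic genes lower, and Ptprc at 0.33 (0.00232). Ptprc passed under 4 of these 5 rankings, all but the raw count. The rankings share cells and the same CD45 tag, so these calls are not independent of each other. The relative call was lost in several settings, and the residual and both-scale rankings were not fitted again with pools or cells left out. The calls of the dissociation, class II and interferon lists differed in direction between rankings.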

How the data were processed

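The authors deposited UMI counts per gene or antibody tag and barcode, without normalization; tools in the submitters' processing notes are bcl2fastq 2.20.0.422, Cell Ranger (3.0.1, 4.0.0) and Seurat 3, with build mm10, while per the file headers pool 1 carries version 3.1.0 and the others 4.0.0. Pools were joined on 30406 shared genes. The RNA of each gate was summed within its hashed sample and tested with edgeR 4.0.16 (R 4.3.3; filterByExpr, TMM, quasi-likelihood, hashed sample as block, Benjamini-Hochberg, threshold 0.05). The pairing comes from the cells: both gates are cut from 1 hashed sample. CPM are on TMM-scaled library sizes unless stated, and differences per sample use a prior count of 2. RNA amounts were tested by sign permutation over samples (Python 3.11.15, scipy 1.17.1). Doublets were limited only by the hashtag share and the cap on infiltrating markers; doublets within 1 hashed sample were not called.

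Named genes were Ptprc, in each comparison the 10 highest and 10 lowest among called genes with average log2 CPM of at least 4 and the same sign in at least 90% of samples (predicted models, mitochondrial and ribosomal genes left out), the 2 members of each list with the smallest adjusted p, and up to 4 called alike in both; other members of the lists were named as examples after their values were seen. The members and lists were chosen with earlier results of these data known. Alternatives were DESeq2 1.42.0, library size scaling, no low-count filter, no block, pools left out or alone, other gates, cell filters and rankings; leaving out cells with markers of other leukocytes was added after seeing the data. On simulated data with 9093 genes (relative) and 8675 genes (raw), 94.9% of log2 changes of 1 were recovered in each, and of changes of 0.5 60.2% (relative) and 74.7% (raw). Promoter windows are from RefSeq (GRCm38.p6). Clec7a was not analysed here. Some members of the lists stay in the counts but are not reported here.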

Additional observations from a re-analysis of the deposited data

Results flagged for a closer look

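The CCR2 tag, an antibody against the chemokine receptor of inflammatory monocytes, was read in pools 2 and 3 only and entered neither ranking, so it lies outside the comparisons. Over 10 hashed samples the median CCR2 tag count per cell was 10 UMIs (7 to 13) in the relative CD45-high gates and 14 (11 to 39) in the low gates. In the raw gates it was 18.75 (12 to 24) in the high and 7 (6 to 10) in the low gates. Means per cell lay far above the medians in many gates, so some cells carried much more of the tag. The means ran from 8.2 to 48.4 UMIs in the relative high gates and from 27.5 to 94.5 in the relative low gates. Raw high gates had means of 25.9 to 88.7 and raw low gates of 6.8 to 15.2. No control tag sets a background for these values, and the cells had been capped in Ccr2 RNA by the rule that chose them.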

How the results depend on the processing

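The relative comparison called 213 genes. This count was 358 with no filter on low counts, 119 with a hashtag share of at least 90%, 28 in pool 2 alone and 1 in pool 3 alone, and 44 to 191 when 1 pool was left out (44 without pool 1, 112 without pool 2). With other rankings it was 2402 (raw), 489 (residual on the other 9 tags), 665 (residual on RNA UMIs) and 1016 (the top and bottom 25% on both scales). The hashed sample is the replicate block here, since both gates come from it; with no replicate block edgeR called 0 genes, with 272 at an unadjusted p under 0.05 (DESeq2, with the block, called 149). The raw comparison's 2402 became 674 with no replicate block, 971 in pool 1 alone, 1312 in pool 2 alone, 88 in pool 3 alone, and 1051 to 2400 when 1 pool was left out (1333 without pool 1, 1051 without pool 2). Relative differences in RNA amount ranged from 0.15 to 0.29 (log2), in mitochondrial share from 0.20 to 0.39 points and in ribosomal share from 0.68 to 1.05 points when 1 pool was left out; with the top and bottom 10% RNA amount was 0.11 and ribosomal share 0.64. Ptprc in the relative gates missed the threshold with library size scaling (0.23), no replicate block (0.24), pool 1 (0.25), pool 2 (0.34) or pool 3 (0.051) alone, counts summed per pool (0.23), a hashtag share of 90% (0.27), no infiltrating marker UMI (0.26), mitochondrial UMIs under 5% (0.23), no markers of other leukocytes (0.20) and raw ranks (0.11), and ranged from 0.19 to 0.29 when 1 pool was left out. Ptprc in the raw gates turned to -0.019 with library size scaling. The cause of these changes was not tested.

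Of the values of named genes other than Ptprc, 843 kept direction and side of the threshold, 209 lost and 19 gained the call, and 69 turned. The values that turned in the relative comparison (log2) follow. With raw ranks these were Gt(ROSA)26Sor -0.079, Arl4d -0.27, Ssr2 0.27, Psma3 0.10, Rer1 0.047, Ostc 0.13, Jak1 -0.030, Lgals3 2.37, Lgals1 2.0, Fcrls -0.12, Ltc4s -0.14, H2-Aa 0.44, H2-Q7 0.37, H2-T22 0.31, Gbp2 0.95, Cxcl9 2.39, Ccl7 0.96, C4b 0.49, H2-Ab1 0.32, Cd74 0.52, Pclaf 1.33, Tyms 0.40, Cd36 1.74, Mif 1.0. With the residual on RNA UMIs they were Gadd45b -0.20, Nfkbia -0.24, Gt(ROSA)26Sor -0.42, Nfkbiz -0.27, Ppp1r15a -0.25, Junb -0.14, Arl4d -0.64, Ssr2 0.060, Ostc 0.048, Lgals3 1.53, Lgals1 0.47, H2-Aa 0.29, H2-Q7 0.078, H2-T22 0.051, Gbp2 0.22, Cxcl9 1.42, C4b 0.0081, H2-Ab1 0.17, Cd74 0.27, Cd36 0.52, Ctsl -0.037, Mif 0.27. On both scales they were Arl4d -0.012, Ssr2 0.028, Lgals3 2.21, Lgals1 2.04, Ltc4s -0.057, Gbp2 0.018, Cxcl9 1.1, Ccl7 0.16, Pclaf 0.56, Tyms 0.13, Cd36 0.53, Mif 0.64. In pool 2 alone they were Lgals3 0.16, Pclaf 0.089, Tyms 0.11. In pool 3 alone they were Fcrls -0.020, H2-T22 0.051, H2-Ab1 0.070. With the residual on the other 9 tags there was Lgals3 0.70. Without cells carrying markers of other leukocytes there was Ccl5 -1.12. When 1 pool was left out, Lgals3 from -0.97 to 0.018, Pclaf from -1.39 to 0.072, Tyms from -0.66 to 0.056 turned without pool 1. Depth limits the rarer genes: a gate held as few as 31 Ptprc UMIs.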

Other observations

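Some genes outside the main groups also passed in opposite directions under the 2 rankings. Cd36, a scavenger receptor for lipids, was lower in the relative high gates (-1.19 ± 0.23, edgeR adjusted p = 0.00139, lower in 11 of 16 samples) and higher in the raw high gates (1.74 ± 0.19, adjusted p = 8.4e-09, higher in 13 of 16). Ccl7, a monocyte chemoattractant, was lower in the relative (-0.85 ± 0.18, 12 of 16) and higher in the raw high gates (0.96 ± 0.19, though in only 9 of 16).

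Ccrl2 passed as higher under both rankings, at 0.56 ± 0.11 in the relative and 0.95 ± 0.08 in the raw gates (16 of 16 samples in the latter). Both rankings share cells, so the pair of values is a description.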
